A study of Mus musculus with 9 samples.

Results

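The genes described here are 31 genes of cholesterol and fatty acid synthesis, measured by RNA-seq in LSKs (lineage-negative, Sca1+, Kit+ haematopoietic stem and progenitor cells) of transplanted mice. They were chosen by name and not by their measured values, though with earlier results of these data known. All 31 had a row among the 24060 named rows of the count table, and 30 of them were among the 13355 genes with enough counts to be tested. Hmgcs1, the cytosolic HMG-CoA synthase, was listed at 0 counts in all 9 libraries and could not be tested. Whether its reads were assigned to this row was not tested, so the 0 is not read here as absence of the RNA. By role, 4 genes belong to the mevalonate pathway, 3 lead from isoprenoids to squalene, 8 lead from squalene to cholesterol, 5 regulate the pathway through SREBP, 1 transports sterols, 3 make fatty acids, 4 are desaturases and 3 are elongases.

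The study asked how MSI2, an RNA-binding protein, alters LSKs in a mouse model of myelodysplastic syndrome. Control cells (3 libraries) came from C57BL/6 donors. NHD13 cells (2 libraries) carried a NUP98-HOXD13 transgene under the Vav promoter, which is active in blood cells. NHD13/MSI2 cells (4 libraries) carried that transgene together with a tet-on MSI2 allele at Col1A1 and rtTA at ROSA26, so that doxycycline induced MSI2. Bone marrow of each genotype was transplanted with CD45.1+ helper cells into irradiated congenic recipients, the labels gave an age of 4 months, and LSKs were profiled after 3 months of doxycycline, before overt disease. The labels named no mouse or culture for a library, so the p-values below measure the spread between these libraries.

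As background, cells build cholesterol from acetyl-CoA through mevalonate, isoprenoid units, squalene and lanosterol. Fatty acids are built from the same acetyl-CoA and are then lengthened by elongases and given double bonds by desaturases. Both branches are controlled by the SREBP transcription factors: when membrane sterols are low, SCAP carries the SREBP precursor out of the endoplasmic reticulum so that its active part can reach the nucleus, and when sterols are high the INSIG proteins hold SCAP back. Proliferating blood progenitors use both branches for new membrane.

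SREBP binds the sterol regulatory element near the start of its target genes, usually beside NF-Y and Sp1 sites. Sequences before the start sites were available from RefSeq (GRCm38.p6) for 24 of the 31 genes, as 33 windows of 250 bases. Each window was searched on both strands for TCACNCCAC (a sterol regulatory element), CCAAT (the NF-Y box), GGGCGG (the Sp1 box) and the E-box CACGTG, none of which contains another. CCAAT was found in 20 of the 33 windows (60.6%) and in 33.8% of all 32851 windows of the same length. GGGCGG was found in 23 windows (69.7%) and in 32.7% of all windows. CACGTG was found in 5 windows (15.2%) against 6.02% of all windows, and TCACNCCAC in 1 window (3.03%) against 1.05%. These are matches of letters and not measured binding sites, and other forms of the sterol regulatory element were not searched for. No window was available for Sqle, Stard4, Fdps, Fdft1, Scd1, Scd2 and Fads1. The stretches printed here were chosen after the values of the genes were seen: Hmgcs1, which held the only TCACNCCAC match, and Cyp51 and Dhcr7, 2 genes that were lower in NHD13/MSI2 cells. They run 5′ to 3′ on the strand of the gene, with matches in capitals, and bases that GENCODE places in an exon were left out.
Hmgcs1, chr13:119690101-119690350, + strand, from -250 to -1 of the start: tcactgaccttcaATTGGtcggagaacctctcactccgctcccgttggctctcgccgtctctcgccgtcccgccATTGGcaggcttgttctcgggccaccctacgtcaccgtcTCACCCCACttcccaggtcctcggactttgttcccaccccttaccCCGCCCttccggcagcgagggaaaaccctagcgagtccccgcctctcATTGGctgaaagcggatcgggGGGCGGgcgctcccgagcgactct
Cyp51, chr5:4104747-4104947, - strand, from -250 to -50: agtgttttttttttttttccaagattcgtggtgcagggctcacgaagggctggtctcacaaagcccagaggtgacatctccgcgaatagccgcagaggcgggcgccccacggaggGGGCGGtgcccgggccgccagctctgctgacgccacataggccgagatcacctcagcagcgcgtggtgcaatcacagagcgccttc
Dhcr7, chr7:143822917-143823144, + strand, from -250 to -23: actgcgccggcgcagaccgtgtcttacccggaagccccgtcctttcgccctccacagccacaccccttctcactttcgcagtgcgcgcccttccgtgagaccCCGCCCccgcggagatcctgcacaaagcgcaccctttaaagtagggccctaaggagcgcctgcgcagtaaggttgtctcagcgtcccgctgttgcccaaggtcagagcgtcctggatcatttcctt
In the Hmgcs1 window the capitals mark the TCACNCCAC match at -137, CCAAT on the reverse strand at -237, -176 and -45, and GGGCGG at -92 on the reverse strand and at -24. In the Cyp51 stretch they mark GGGCGG at -135, and the CCAAT of this window at -29 lies in the part left out. In the Dhcr7 stretch, 1 of 3 windows of this gene, they mark GGGCGG on the reverse strand at -148.

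The libraries held 19242153 to 23013493 counts, and levels below are counts scaled to a common library size by TMM (CPM). A floor of 3 counts, an approximate upper limit for a count of 0, corresponds to 0.13 to 0.156 CPM before scaling. NHD13/MSI2 replicate 4 stood apart: ribosomal protein genes took 1.7% of its counts and 4.1% to 5.37% of the other libraries, its TMM factor was 0.785 and the others were 0.969 to 1.087. Xist read 888 and 866 CPM in control replicates 1 and 3 and at most 2.33 CPM in the other 7 libraries, so control replicate 2 was the only control of the same sex as the NHD13 and NHD13/MSI2 libraries. Hoxd13 had 0 counts in the 3 controls and 13 to 25 counts in the 6 libraries labelled NHD13 or NHD13/MSI2. Msi2 read 223 to 316 CPM in the libraries labelled control and 111 and 139 CPM in those labelled NHD13. In those labelled NHD13/MSI2 it read 88.0, 77.1, 82.8 and 241 CPM. Replicates 1 to 3 were thus below NHD13, and replicate 4 was above NHD13 and within the control range. The Msi2 row did not show the induced gene across the group. Whether reads of the MSI2 transgene were counted in this row is not given in the sources used here. The 5 LSK markers (Kit, Ly6a, Cd34, Flt3 and Ptprc) summed to 4610 to 5050 CPM in control, 2650 to 3140 in NHD13 and 2570 to 3420 in NHD13/MSI2 libraries. Among them, Ly6a (Sca1) went from 79.3 to 89.8 CPM in control and 48.3 and 69 CPM in NHD13 to 98.6 to 375 CPM in NHD13/MSI2, and Ptprc overlapped among the groups. Neutrophil markers summed to 1980 to 3520, 3100 to 4250 and 8280 to 14300 CPM in the same order. Their list was Ly6g, Elane, Mpo, Ltf, Camp and Ngp, of which 5 had a row. Only the sum is given, and it is not read here as a content of neutrophils. Monocyte and macrophage markers summed to 32.9 to 47.5, 358 to 469 and 768 to 963 CPM, and B cell markers to 45.7 to 57.5, 81.8 to 127 and 262 to 447 CPM. T cell markers summed to 37.5 to 50.2, 200 to 203 and 50.5 to 86.4 CPM, and megakaryocyte markers to 80.3 to 221, 86.6 to 702 and 15.2 to 45.6 CPM. Endothelial markers summed to 166 to 197, 330 to 347 and 438 to 559 CPM, but not every marker rose. Of the 4 endothelial markers, Cdh5 in NHD13 and Kdr in NHD13/MSI2 were at or under 3 counts in every library of the group. In control 0 of the 4 were at or under 3 counts in all libraries. Erythroid and fibroblast markers summed to at most 16.1 and 6.12 CPM in any library. Adipocyte markers, of a cell type rich in lipid synthesis, summed to 0.6 to 2.04, 0.642 to 5.06 and 3.63 to 8.53 CPM. Of these, Pparg read 0.164 to 1.38 CPM in control, 2.07 and 0 CPM in NHD13, and 3.57 to 7.68 CPM in NHD13/MSI2. Adipoq and Fabp4 overlapped between control and NHD13/MSI2, and Plin1 and Lep were at or under 3 counts in all 9 libraries.

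Of the 31 genes, 5 differed between NHD13/MSI2 and control LSKs at an adjusted p under 0.01 (quasi-likelihood test of edgeR, Benjamini-Hochberg over all genes tested), the threshold for a call throughout. Sqle, Cyp51 and Dhcr7, which are enzymes between squalene and cholesterol, and Stard4, a sterol carrier, were lower. Fads2, the delta-6 desaturase of polyunsaturated fatty acids, was higher. Of the 30 genes tested, 4 were thus called lower and 1 higher, beside 6.55% of all genes tested called lower, 4.49% called higher and 11% called either way. The libraries of these 2 groups did not overlap for 10 genes that were lower and 3 that were higher, beside 20.4% and 15.3% of all genes. The median log2 fold change over the 30 genes was -0.18, and over all genes it was -0.01. In bulk RNA, fewer cells of a type and less RNA per cell cannot be told apart. Control replicates 1 and 3 differed in sex from the NHD13/MSI2 libraries, so sex and group cannot be fully told apart here.

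Between NHD13 and control LSKs 0 of the 30 genes were called, beside 1.03% of all genes (0.824% higher and 0.21% lower). At an unadjusted p under 0.05 there were 9 (7 lower and 2 higher), beside 13.5% of all genes, and DESeq2 called 2, Sqle and Scd1, both lower. The median log2 fold change of the 30 genes in this comparison was -0.32, with 22 of 30 below 0, and over all genes it was 0.02. The libraries did not overlap for 13 genes that were lower and 3 that were higher, beside 18.5% and 18.9% of all genes. Between NHD13/MSI2 and NHD13 LSKs 0 of the 30 genes were called, beside 3.17% of all genes (0.584% higher and 2.58% lower). At an unadjusted p under 0.05 there were 5 (3 higher and 2 lower), beside 21.7% of all genes, and DESeq2 called Stard4 lower and Scd2 higher. The median here was 0.01, with 15 of 30 genes above 0 and 15 below. The libraries did not overlap for 4 genes that were higher and 3 that were lower, beside 13% and 16.9% of all genes. The comparisons with control share the 3 control libraries, and the comparisons with NHD13 share its 2 libraries.

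**Figure D1:**
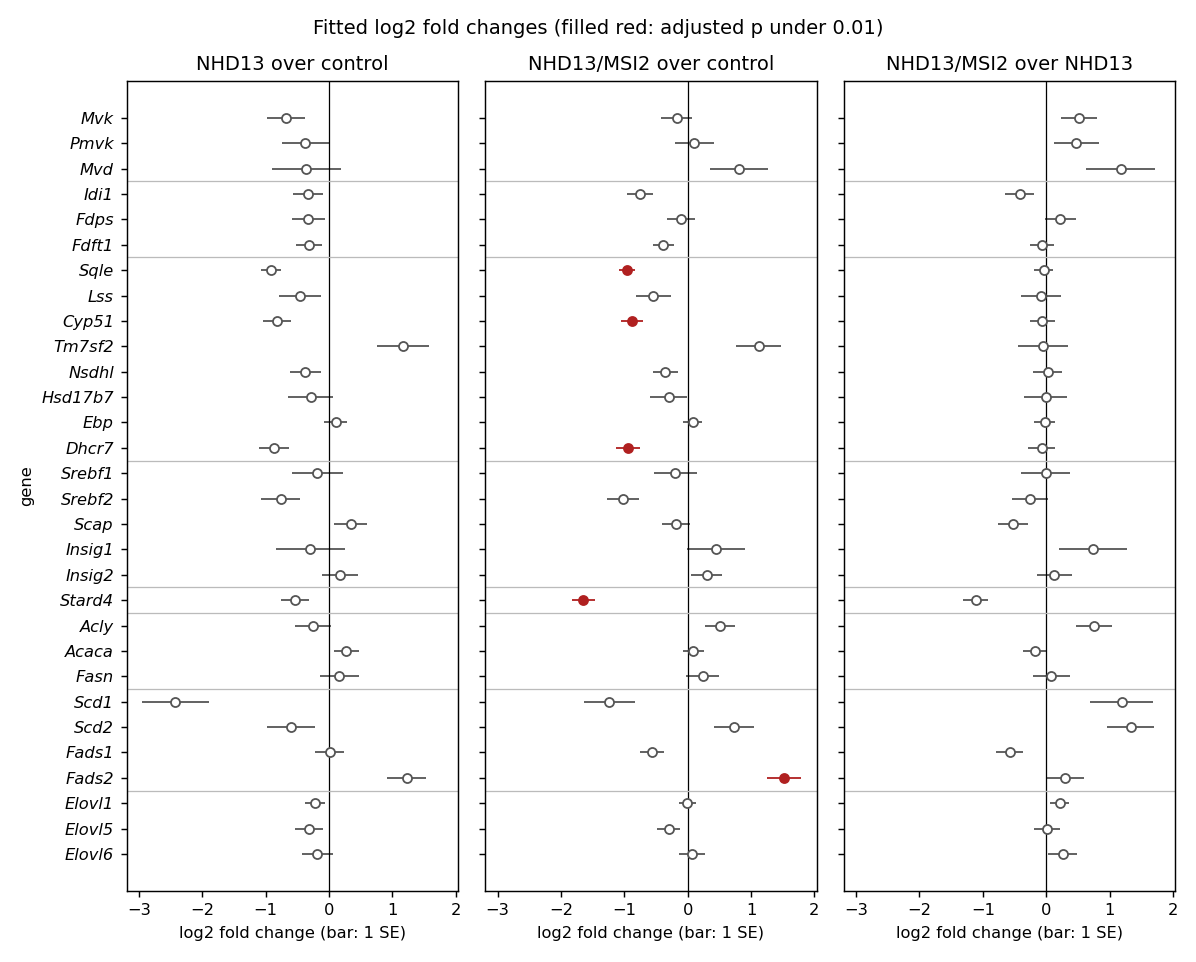
Log2 fold change (x axis, log2 units, bars of 1 SE) of the 30 genes tested (y axis, grouped by role) in the 3 comparisons, with genes called at an adjusted p under 0.01 in filled red. The 5 filled points all lie in the comparison of NHD13/MSI2 with control, where Stard4 is lowest at -1.65 and Fads2 highest at 1.53.

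Sqle encodes squalene epoxidase, which begins the conversion of squalene to sterols (chr15:59315077-59331192, + strand, GRCm38). It read 74.4, 65.9 and 79.4 CPM in the controls, 37.1 and 40.9 CPM in NHD13, and 41.6, 36.1, 37.1 and 36.7 CPM in NHD13/MSI2. Every NHD13 and NHD13/MSI2 library was below every control, and those 6 libraries lay within a narrow range. In NHD13/MSI2 over control the log2 fold change was -0.95 ± 0.127 (SE), 1.93-fold lower, with an adjusted p of 0.000974, and the call was kept when any 1 library was left out. In NHD13 over control it was -0.91 ± 0.158 with an adjusted p of 0.0167, which is not a call at the threshold used here. The difference between NHD13/MSI2 and NHD13 was -0.04 ± 0.146 (adjusted p = 0.912).

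Cyp51, the lanosterol demethylase (chr5:4081145-4104746, - strand), read 80.3, 65.8 and 97.2 CPM in control, 48.1 and 43.7 CPM in NHD13, and 39.1, 37.9, 52.5 and 46.5 CPM in NHD13/MSI2. The controls were again above all 6 other libraries. Cyp51 was 1.84-fold lower in NHD13/MSI2 than in control (log2 fold change -0.88 ± 0.175, adjusted p = 0.00672). The call was kept in 3 of the 9 fits that left out 1 library. It was lost without control replicate 1 or 3, either NHD13 library, or NHD13/MSI2 replicate 1 or 2, with an adjusted p of at most 0.036.

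Dhcr7, which makes cholesterol from 7-dehydrocholesterol in the last step (chr7:143823145-143848410, + strand), read 85.5, 70.0 and 85.3 CPM in control, 46.1 and 41.9 CPM in NHD13, and 48.8, 44.2, 45.4 and 28.9 CPM in NHD13/MSI2. The groups with and without NHD13 did not overlap, and NHD13/MSI2 replicate 4 was the lowest library. Dhcr7 was 1.92-fold lower in NHD13/MSI2 than in control (log2 fold change -0.94 ± 0.187, adjusted p = 0.00679). The call was kept only without NHD13/MSI2 replicate 4 (-0.79, adjusted p = 0.00137) among the 9 fits that left out 1 library, and the highest of the other adjusted p-values was 0.0324. In NHD13 over control the log2 fold changes of Cyp51 and Dhcr7 were -0.82 ± 0.216 and -0.87 ± 0.231, with adjusted p-values of 0.0922 and 0.0964. Without NHD13/MSI2 replicate 4, Dhcr7 (adjusted p = 0.00717) and Sqle (0.0065) were called in NHD13 over control as well.

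The other 5 enzymes between squalene and cholesterol were not called in any comparison. Tm7sf2, a sterol reductase, had the lowest counts of the 8 and went the other way: it read 2.13, 1.95 and 2.84 CPM in control, 4.18 and 6.22 CPM in NHD13 and 3.21 to 6.18 CPM in NHD13/MSI2. These groups did not overlap with control either, and the log2 fold changes were 1.17 ± 0.409 in NHD13 over control (adjusted p = 0.215) and 1.12 ± 0.357 in NHD13/MSI2 over control (adjusted p = 0.0533). Lss, Nsdhl, Hsd17b7 and Ebp, which close, demethylate, reduce and isomerise the sterol rings, had log2 fold changes between -0.54 and 0.10 in the comparisons with control. Nsdhl and Ebp lie on the X chromosome, and in control replicate 2 they read 55.6 and 62.9 CPM against 33.6 to 48.5 and 56.9 to 59.7 CPM in replicates 1 and 3. For all 8 enzymes the difference between NHD13/MSI2 and NHD13 was small, from -0.08 to 0.02 on the log2 scale, with standard errors of 0.146 to 0.39.

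**Figure D2:**
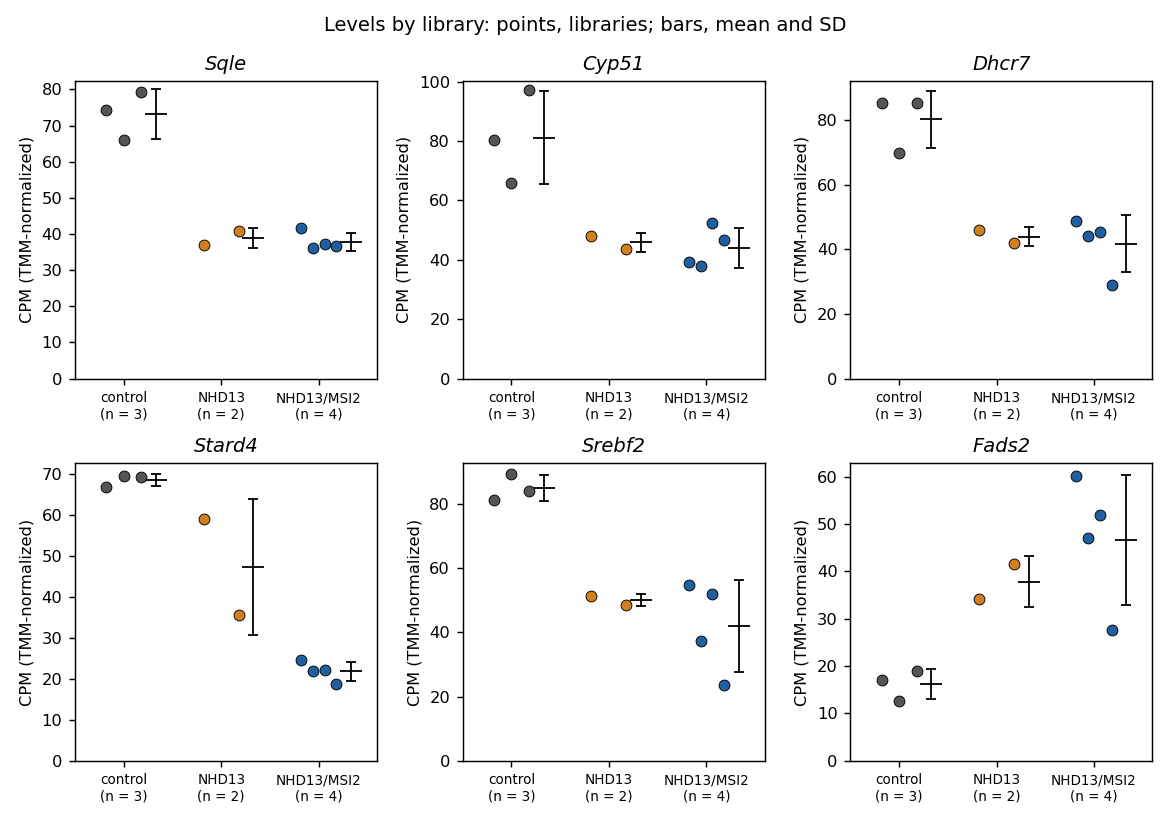
Levels of Sqle, Cyp51, Dhcr7, Stard4, Srebf2 and Fads2 (y axes, CPM scaled by TMM, from 0) in control, NHD13 and NHD13/MSI2 libraries, with 1 point per library and the mean and SD beside them. In the first 5 genes every control point lies above all 6 other points, in Fads2 below them, and Stard4 falls from 68.6 ± 1.47 CPM in control to 21.9 ± 2.34 CPM in NHD13/MSI2.

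Stard4, which moves cholesterol between membranes inside the cell, had the largest change of the called genes. It read 67.0, 69.6 and 69.3 CPM in control, 59.1 and 35.6 CPM in NHD13, and 24.5, 21.8, 22.3 and 18.8 CPM in NHD13/MSI2. The 3 groups did not overlap, but the 2 NHD13 libraries lay far apart. Stard4 was 3.14-fold lower in NHD13/MSI2 than in control (log2 fold change -1.65 ± 0.183, adjusted p = 0.00038), a call kept without any 1 library. It was 2.16-fold lower in NHD13/MSI2 than in NHD13 (-1.11 ± 0.202), where the adjusted p of 0.0101 just missed the threshold. That value rested on the NHD13 libraries: it was 0.00376 without NHD13 replicate 2 and 0.114 without NHD13 replicate 1, with DESeq2 at 0.000103. In NHD13 over control the log2 fold change was -0.54 ± 0.222 (adjusted p = 0.322). Leaving out NHD13/MSI2 replicate 4 also brought Stard4 under the threshold in NHD13/MSI2 over NHD13. The call in NHD13/MSI2 over control did not depend on this library: without it the log2 fold change was -1.58 (adjusted p = 0.000385).

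The mevalonate pathway and the step to squalene held no called gene. Mvk and Pmvk, which phosphorylate mevalonate, read 8.22 to 9.01 and 22.01 to 23.9 CPM in control, 4.59 to 6.16 and 15.2 to 20.1 CPM in NHD13, and 6.63 to 9.80 and 15.7 to 41.0 CPM in NHD13/MSI2. Mvd, the decarboxylase after them, read 2.89 to 6.00 CPM in control and 3.12 to 11.5 CPM in NHD13/MSI2, with log2 fold changes of -0.36 ± 0.547 in NHD13 over control and 1.18 ± 0.54 in NHD13/MSI2 over NHD13 (adjusted p = 0.245). Idi1, the isopentenyl diphosphate isomerase, read 12.7, 16.7 and 14.8 CPM in control, 12.8 and 10.6 CPM in NHD13, and 9.52, 7.83, 9.32 and 8.37 CPM in NHD13/MSI2. Its 4 NHD13/MSI2 libraries lay below both other groups, and the log2 fold change over control was -0.75 ± 0.201 with an adjusted p of 0.027 (0.00134 in DESeq2). Fdft1, the squalene synthase, read 26.4 to 31.1 CPM in control and 17.8 to 25.1 CPM in the 6 other libraries, without overlap, at -0.39 ± 0.167 (adjusted p = 0.141) in NHD13/MSI2 over control. Fdps, the farnesyl diphosphate synthase, overlapped between NHD13/MSI2 and control.

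Srebf2, which encodes the SREBP that favours cholesterol genes (chr15:82147181-82205379, + strand), was lower in the same 6 libraries without being called. It read 81.3, 89.4 and 84.1 CPM in control, 51.4 and 48.6 CPM in NHD13, and 54.8, 37.3, 51.8 and 23.6 CPM in NHD13/MSI2. No library with NHD13 reached the lowest control. The log2 fold change was -1.02 ± 0.253 in NHD13/MSI2 over control (adjusted p = 0.0192) and -0.76 ± 0.312 in NHD13 over control (adjusted p = 0.313). DESeq2 (adjusted p = 0.0021) and the fit without NHD13/MSI2 replicate 4 (-0.81, adjusted p = 0.00414) called the first of these, and the other fits without 1 library did not, with adjusted p-values up to 0.0657.

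The other regulators were not called in any comparison. Srebf1, which encodes the SREBP that favours fatty acid genes, read 40.0, 53.8 and 38.8 CPM in control, 35.3 and 42.6 CPM in NHD13, and 51.7, 40.4, 46.3 and 16.2 CPM in NHD13/MSI2, with replicate 4 lowest. Scap, the escort of SREBP, read 26.7, 26.9 and 25.7 CPM in control, 28.4 and 38.7 CPM in NHD13, and 28.0, 26.3, 23.1 and 15.8 CPM in NHD13/MSI2. Insig1 read 39.2, 55.7 and 57.0 CPM in control and 42.2 and 40.2 CPM in NHD13. In NHD13/MSI2 Insig1 read 43.5, 41.2, 41.8 and 149 CPM, so that 1 library was over 3 times the other 3 and the fitted change over control turned from 0.44 ± 0.456 to -0.26 without it. Insig2 read 35.8, 32.8 and 27.8 CPM in control, 39.8 and 32.5 CPM in NHD13, and 38.2, 25.3, 40.2 and 54.8 CPM in NHD13/MSI2, where replicate 4 was the highest.

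**Figure D3:**
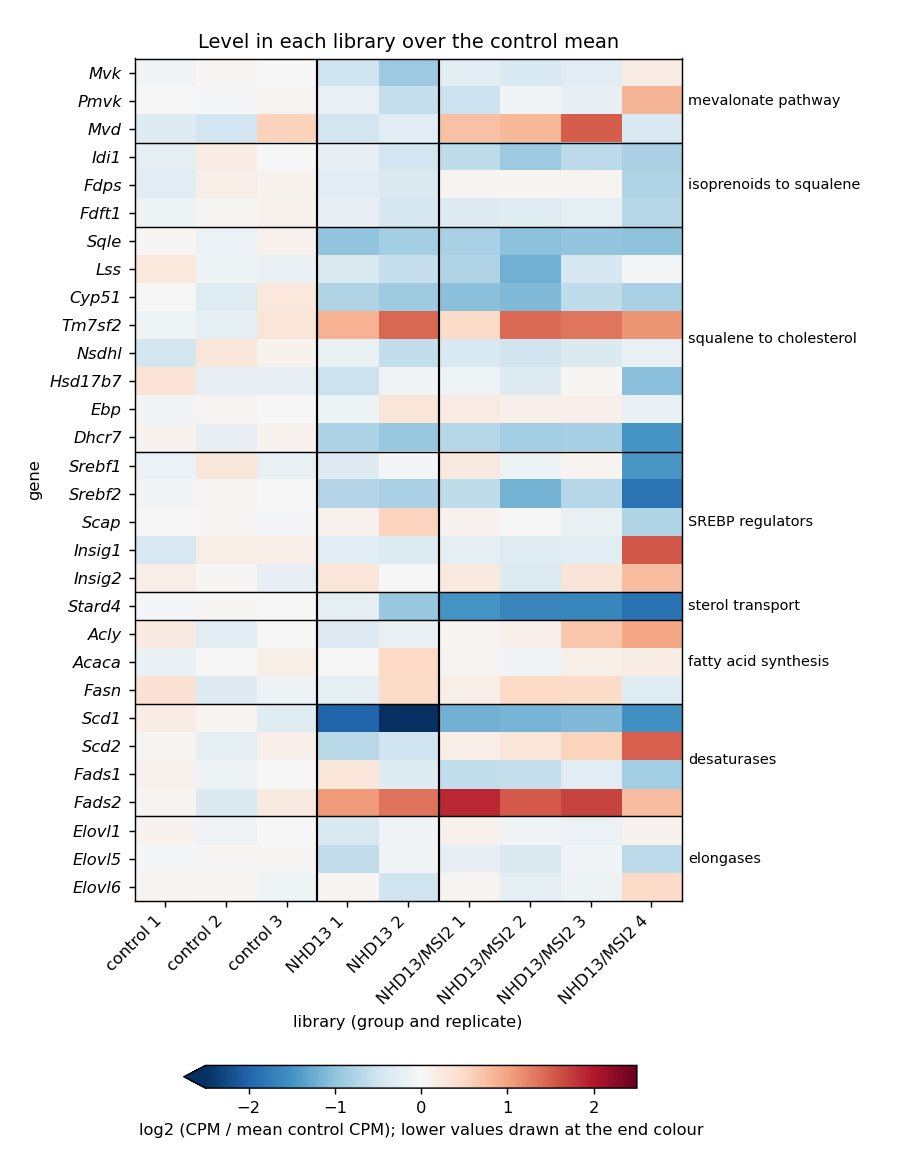
Heat map of the 30 genes tested (rows, grouped by role) in the 9 libraries (columns), coloured by the log2 ratio of the CPM to the mean control CPM from blue (lower) to red (higher). Sqle, Cyp51, Dhcr7, Srebf2 and Stard4 are blue in all 6 libraries of NHD13 and NHD13/MSI2 cells, Fads2 and Tm7sf2 are red in them, and NHD13/MSI2 replicate 4 differs from its group in Insig1, Scd2, Srebf1 and Srebf2.

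Fads2 (chr19:10062765-10101746, - strand) was the gene called higher. It read 17.1, 12.6 and 18.9 CPM in control, 34.1 and 41.6 CPM in NHD13, and 60.1, 47.0, 52.0 and 27.7 CPM in NHD13/MSI2. All 6 libraries with NHD13 were above the controls, and replicate 4 was the lowest of its group. Fads2 was 2.88-fold higher in NHD13/MSI2 than in control (log2 fold change 1.53 ± 0.272, adjusted p = 0.00398), and the call was kept in 3 of the 9 fits without 1 library. It was lost without any 1 of the 3 controls or NHD13/MSI2 replicates 1 to 3, at adjusted p-values of at most 0.0218. In NHD13 over control it was 1.22 ± 0.308 (adjusted p = 0.0793), and in NHD13/MSI2 over NHD13 0.30 ± 0.298 (adjusted p = 0.623). Fads1, the delta-5 desaturase encoded beside Fads2 on chromosome 19, read 67.2 to 79.6 CPM in control, 89.6 and 59.0 CPM in NHD13, and 48.0, 49.1, 61.6 and 40.4 CPM in NHD13/MSI2. Its log2 fold change in NHD13/MSI2 over control was -0.57 ± 0.189 (adjusted p = 0.0628), so the pair had fitted changes of opposite sign, of which 1 was called.

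Scd1 and Scd2, the stearoyl-CoA desaturases that make monounsaturated fatty acids, were not called. Scd2 was by far the more abundant, at 63.65 ± 7.75 CPM per kb of exon in control (SD, n = 3) against 0.766 ± 0.13 for Scd1. Scd2 read 365, 299 and 378 CPM in control, 213 and 244 CPM in NHD13, and 389, 426, 507 and 983 CPM in NHD13/MSI2. The NHD13 libraries were lowest and the NHD13/MSI2 libraries highest, with no overlap among the groups. Scd2 differed between NHD13/MSI2 and NHD13 by a log2 fold change of 1.33 ± 0.369 (adjusted p = 0.0566), which was called by DESeq2 (adjusted p = 0.00434) and without NHD13/MSI2 replicate 4 (0.96, adjusted p = 0.00686). Scd1 read 4.21, 3.89 and 3.00 CPM in control, 0.919 and 0.445 CPM in NHD13, and 1.60, 1.65, 1.72 and 1.30 CPM in NHD13/MSI2. The 3 groups of Scd1 did not overlap, with log2 fold changes of -2.43 ± 0.532 in NHD13 over control (adjusted p = 0.0454, and 5.15e-05 in DESeq2) and -1.24 ± 0.397 in NHD13/MSI2 over control (adjusted p = 0.0558). Reads of these near relatives could be assigned to either gene, depending on how multiply aligned reads were treated, which is not given in the sources used here.

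The enzymes that make fatty acids were not called. Acly, which makes cytosolic acetyl-CoA from citrate, read 271, 194 and 233 CPM in control, 187 and 206 CPM in NHD13, and 243, 254, 377 and 453 CPM in NHD13/MSI2. All NHD13/MSI2 libraries lay above both NHD13 libraries, at a log2 fold change of 0.76 ± 0.278 (adjusted p = 0.141). Acaca, the acetyl-CoA carboxylase, read 22.3 to 35.3 CPM and Fasn, the fatty acid synthase, 75.9 to 133 CPM over all 9 libraries, with overlap among the groups. Of the elongases, Elovl5 read 242 to 257 CPM in control, 164 and 239 CPM in NHD13, and 160 to 241 CPM in NHD13/MSI2. Every library with NHD13 was below every control, but barely: NHD13/MSI2 replicate 3 read 241.2 CPM and control replicate 1 read 241.6 CPM. Its log2 fold change was -0.30 ± 0.181 in NHD13/MSI2 over control (adjusted p = 0.287). Elovl1 and Elovl6 read 90.2 to 125 CPM and 60.7 to 119 CPM over all libraries.

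**Figure D4:**
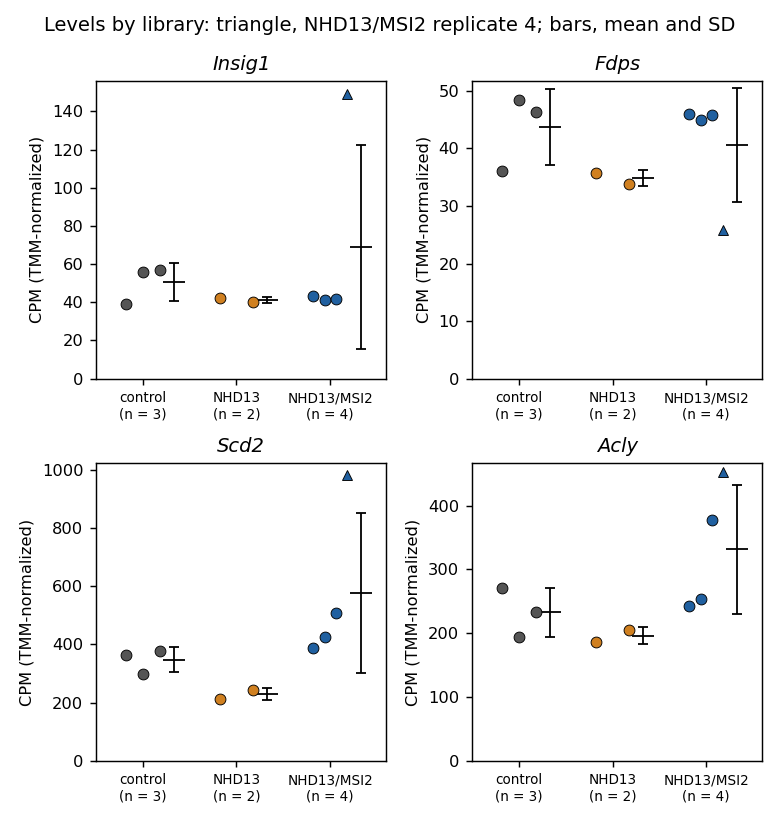
Levels of Insig1, Fdps, Scd2 and Acly (y axes, CPM scaled by TMM, from 0) in the 3 groups, with 1 point per library, the mean and SD beside them, and NHD13/MSI2 replicate 4 drawn as a triangle. The triangle is the highest point of its group for Insig1 (149 CPM), Scd2 (983 CPM) and Acly (453 CPM) and the lowest for Fdps (25.8 CPM).

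Taking the 6 libraries with NHD13 against the 3 controls, 8 of the 30 genes were lower in all 6 without overlap (Fdft1, Sqle, Cyp51, Dhcr7, Srebf2, Stard4, Scd1 and Elovl5) and 2 were higher (Tm7sf2 and Fads2). Over all genes tested 9.37% were lower and 7.81% higher in this way. By role, the enzymes from squalene to cholesterol gave 3 lower and 1 higher of 8 tested. In the same 6 libraries the sums of monocyte and macrophage, B cell, T cell and endothelial markers were above those of all 3 controls. For T cell markers the lowest NHD13/MSI2 sum was 50.5 CPM and the highest control sum 50.2 CPM. The sum of LSK markers was below that of all 3 controls. Neutrophil markers were above the controls in NHD13/MSI2 but overlapped with them in NHD13. The part of these in the differences was not tested. Control replicate 2 was the only control that shared the sex of the other libraries. Over this control alone, the log2 fold changes in NHD13/MSI2 were -0.76 for Sqle, -0.54 for Cyp51, -0.71 for Dhcr7, -1.63 for Stard4 and 1.92 for Fads2. Over all 3 controls they were -0.95, -0.88, -0.94, -1.65 and 1.53 in the same order. Control replicate 2 was the lowest control for Sqle, Cyp51, Dhcr7 and Fads2 and the highest for Stard4. With 1 control library, its spread is assumed to be that of the other groups, so calls lost in this fit decide nothing about sex. For the other controls, sex and group cannot be told apart.

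Per kb of exon, the elongase Elovl5 was the most abundant of the genes in control, at 90.4 ± 3.07 CPM per kb, followed by Scd2 and Elovl1 (60.1 ± 3.48), which did not differ beyond their spread, Acly (50.5 ± 8.36) and Ebp (34.3 ± 1.70). Sqle (26.6 ± 2.48) and Dhcr7 (24.2 ± 2.69) came seventh and eighth and did not differ beyond their spread. In NHD13/MSI2 cells Scd2 came first at 106 ± 50.5 CPM per kb, a spread set by replicate 4, then Elovl5 (73.4 ± 12.3) and Acly (71.95 ± 21.99). Scd1 was the lowest gene above 0 in every group.

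**Figure D5:**
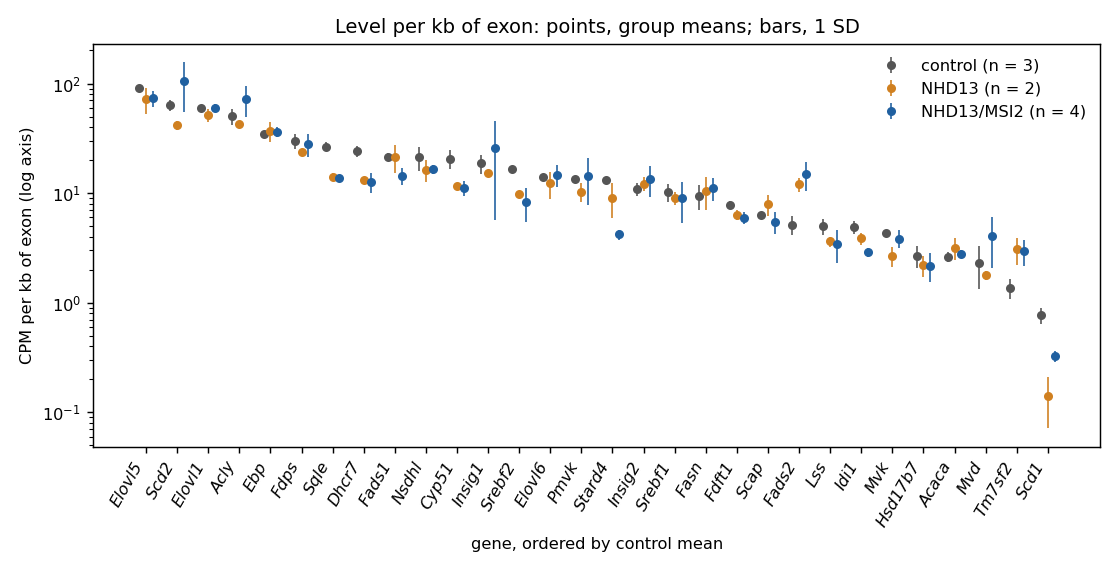
Mean level per kb of exon (y axis, CPM per kb, log scale) of the 30 genes tested, ordered by the control mean, with bars of 1 SD for control (n = 3), NHD13 (n = 2) and NHD13/MSI2 (n = 4) cells. Elovl5 leads in control at 90.4 CPM per kb and Scd1 closes the order at 0.766.

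Other genes of the pathways were counted from fixed lists. In NHD13/MSI2 over control 11% of all genes tested were called, and nothing is read from the counts of these lists, which are small. Of 20 further fatty acid genes tested, 2 were called higher and 1 lower in NHD13/MSI2 over control, beside 4.49% and 6.55% of all genes. Fads3, a desaturase relative, was at 0.285 to 3.76 CPM in control, 14.4 and 28.7 CPM in NHD13 and 20.3 to 24.6 CPM in NHD13/MSI2 (log2 fold change 3.30 ± 0.649, adjusted p = 0.00643). Ptplb, a dehydratase of fatty acid elongation, rose from 10.9 to 11.8 CPM in control to 19.8 to 24.1 CPM in NHD13/MSI2 (0.99 ± 0.171, adjusted p = 0.00337). Acss2, which makes acetyl-CoA from acetate, fell from 29.1 to 36.5 CPM to 1.95 to 7.19 CPM (-2.65 ± 0.423, adjusted p = 0.00233), with NHD13 at 24.0 and 10.5 CPM. Elovl7, an elongase, was the gene of the 20 called in NHD13/MSI2 over NHD13, where 2.58% of all genes were called lower: it read 27.9 and 16.8 CPM in NHD13 and 4.57 to 8.93 CPM in NHD13/MSI2 (-1.90 ± 0.32, adjusted p = 0.00738). Of 7 genes of LXR signalling and sterol efflux, Abca1, which exports cholesterol, was called higher in NHD13/MSI2 over control, at 17.7 to 25.1 CPM in control, 33 and 51.3 CPM in NHD13 and 50.3 to 98.7 CPM in NHD13/MSI2 (1.57 ± 0.286, adjusted p = 0.00438). Of 9 genes of fatty acid oxidation tested, the coactivator gene Ppargc1a was called lower, from 5.39 to 6.64 CPM in control to at most 0.317 CPM in NHD13/MSI2 (-5.27 ± 0.742, adjusted p = 0.00125).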

How the data were processed

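RNA-seq was analysed in LSKs of 3 control, 2 NHD13 and 4 NHD13/MSI2 samples, grouped from the sample labels. The authors deposited 1 table of whole-number read counts per gene symbol, with no normalization and no pooling. The submitters' processing notes name STAR, HTSeq, DESeq and mm9. In the deposited table, 11942 names after the March genes sat 2 rows too high and were moved down, which left 24060 named rows. The 13 rows among the March genes without a settled name, 0.0253% to 0.0323% of a library, were left out. After the move Uty matched the Y-linked Eif2s3y in 9 of 9 libraries (counts of 500 or more in both or in neither), against 2 of 9 before it.

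Low counts were removed with filterByExpr and libraries were scaled with TMM factors. One quasi-likelihood model (edgeR 4.0.16, R 4.3.3) with the group as its term was fitted to all 9 libraries. A gene was called at an adjusted p under 0.01 (Benjamini-Hochberg, over 13355 genes). DESeq2 1.42.0 was the main alternative. The quasi-likelihood test was tried on simulated counts with log2 changes of 1 or 2, up or down, in NHD13/MSI2. Of 107 genes changed by 1, it called 6 over control and 1 over NHD13 (DESeq2 33 and 18). Of 93 genes changed by 2, it called 52 and 44 (DESeq2 78 and 74). False calls were 0 and 1 (DESeq2 12 and 19). A gene that was not called is thus not read as unchanged. CPM carry the spread between libraries and the counting error, and floors of 3 counts cover counting error only. Positions and exon lengths are from GENCODE M21 (GRCm38) and need not be those of the authors' build. The genes and lists were chosen with earlier results of these data known. Genes called in a comparison and the SREBP regulators were to be given in full, the others by range and count. Values of Idi1, Tm7sf2, Scd1, Scd2, Fads1, Acly and Elovl5 in single libraries were added after they were seen. Results for a list of further sterol genes are not reported here.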

Additional observations from a re-analysis of the deposited data

Results flagged for a closer look

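In NHD13/MSI2 cells, 2 of 30 genes had 1 library far from the other 3 by Dixon's criterion, both times replicate 4, which also had the lowest share of ribosomal protein counts. Insig1 was 149 CPM there and 41.2 to 43.5 CPM in the others, a gap of 0.979 of the group's range. Fdps was 25.8 CPM there and 45 to 45.9 CPM in the others, a gap of 0.953 of the range. Chance marks about 1 in 20 groups, and groups of fewer than 4 libraries were not examined.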

How the results depend on the processing

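With names as deposited, the fold changes of Sqle and Stard4 in NHD13/MSI2 over control were 0.033 (adjusted p = 0.905) and 0.44 (adjusted p = 0.0447), 3 genes were called there, and the medians were 0.0529 over control and -0.0376 in NHD13 over control; 12 of the 31 genes take their counts from another row in that case. In NHD13/MSI2 over NHD13, where 0 genes were called, DESeq2 called 2, no filter on low counts 1 and an adjusted p under 0.05 1, and leaving out 1 library gave 0 to 2 calls and medians of -0.0345 to 0.196 (1 call without NHD13 replicate 2, 2 without NHD13/MSI2 replicate 4). In NHD13/MSI2 over control, where 5 were called, DESeq2 called 8, a fit of these groups alone 3, leaving out 1 library 2 to 6, and leaving out control replicates 1 and 3 together 0. In NHD13 over control, where 0 were called, DESeq2 and an adjusted p under 0.05 each gave 2, and leaving out 1 library 0 to 2 (2 without NHD13/MSI2 replicate 4). Other size factors and a robust fit moved no count of calls by over 1.5 times. Correlations of same-numbered deviations ran from -0.106 to 0.204. They were not set against differently numbered libraries, so whether replicate numbers pair the libraries was not settled. With the replicate block 0, 5 and 0 genes were called, with medians of 0.0605, -0.157 and -0.275, in the order of comparisons above. Apart from the deposited names, no called gene changed sign under any alternative, while 15 of 30, 6 of 25 and 6 of 30 genes that were not called did in the same order. The cause of these changes was not tested. Depth limited Scd1 most, with 9 counts in NHD13 replicate 2.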
